A study of Mus musculus with 4 samples.

Results

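miR-26 and miR-101 are a pair of small miRNA families that are widely described as brakes on the growth of liver cells. Their 4 mouse members, mmu-miR-26a, mmu-miR-26b, mmu-miR-101a and mmu-miR-101b, were taken by name from the 611 mouse miRNAs printed on the arrays. Entries marked with a star, which are the opposite arms of the same precursors, were not counted as members. All 4 members were detected on all 4 arrays, whereas 123 of the 611 miRNAs were. The microarrays measured liver RNA of wild type (WT) mice and of Clock△19 mutant mice at ZT2 and at ZT14, that is 2 h and 14 h after the lights came on. All mice were males of 6 to 8 weeks, caged singly with free food and water, and held for 2 weeks in cycles of 12 h light and 12 h dark. The mutant allele was present in the whole animal, and its CLOCK protein still binds its partner BMAL1 but activates transcription poorly. Each array was hybridized with RNA pooled from the livers of 3 mice, with 1 array for each genotype and time point. There was therefore no replicate of any condition, and no test between a single pair of arrays can be made. Whole liver was used, so fewer cells of a type and less of a miRNA in each cell cannot be told apart.

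A miRNA guides a silencing complex to messenger RNAs that pair with its seed, bases 2 to 8 counted from the 5′ end, and lowers their translation or stability. In the liver, miR-26a and miR-26b are known to restrain cell cycle genes, and their precursors lie within genes for small phosphatases that act on the tail of RNA polymerase II. miR-101 is known for repressing Ezh2, the histone methyltransferase of the Polycomb complex, and Mcl1, an inhibitor of apoptosis. Both families are frequently low in hepatocellular carcinoma. CLOCK and BMAL1 drive rhythmic transcription from E-box elements, and the comparisons below ask whether these 4 miRNAs differ with that factor disabled, early in the light phase and early in the dark phase.

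The mature sequences are shown because the members of a family differ by so few bases that their probes cannot be assumed to be separate. They were matched by name to RefSeq (GRCm38.p6), which held all 4, and are written 5′ to 3′ with the seed in capitals.
mmu-miR-26a: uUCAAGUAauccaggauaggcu
mmu-miR-26b: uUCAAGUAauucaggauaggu
mmu-miR-101a: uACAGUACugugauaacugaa
mmu-miR-101b: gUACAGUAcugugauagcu
miR-26a and miR-26b have the same seed, and no other mature miRNA of the RefSeq table has it. Over 21 aligned bases they differ by C11U and C21U, with positions counted from the 5′ end of miR-26a and its base given first. miR-101a and miR-101b differ by A16G over 18 aligned bases, in positions of miR-101a. The RefSeq entry of miR-101b starts 1 base earlier, which shifts its seed by 1 base. When the Mir101b hairpin is read from 1 base later, 20 of 21 bases match miR-101a and the seeds are the same.
stretch of the Mir101b hairpin in the register of miR-101a: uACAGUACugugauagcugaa
The probe sequences were not analysed here, and signal of a family member on the probes of the other cannot be told apart from its own.

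Mature miR-26a is made from 2 precursors. Mir26a-1 lies at chr9:119031796-119031885 on the plus strand, within the span of Ctdspl, and Mir26a-2 at chr10:126995530-126995613 on the plus strand, within that of Ctdsp2. Mir26b lies at chr1:74394310-74394394 on the plus strand, within Ctdsp1. All of these host genes encode the small phosphatases named above. Mir101a lies at chr4:101346945-101347027 on the minus strand, within the long noncoding RNA gene E130102H24Rik. Mir101b lies at chr19:29135279-29135375 on the plus strand, within Rcl1, which encodes a protein of ribosomal RNA processing. The array read mature miR-26a as a single entry and does not separate its precursors.

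A single slide held all 4 arrays, and they share a scan. Each carried 13715 spots, and 138 to 193 mouse miRNAs were detected per array. The 75th percentile of the signals over the 123 miRNAs detected everywhere came to 537 (WT) and 503 (mutant) units at ZT2 and to 339.9 (WT) and 536 (mutant) units at ZT14. The WT array at ZT14 thus had the lowest miRNA signals by this measure, and each array was divided by its own percentile before log2 was taken. The number of arrays limits the precision. The 3 hepatocyte miRNAs checked (miR-122, miR-192 and miR-194) were detected on every array, with a summed scaled signal of 96.02 to 122. Markers of other cells were far dimmer in sum, with 2.55 to 5.94 for red blood cells, 3.61 to 4.25 for endothelium, 0.611 to 1.20 for leukocytes and 0.0811 to 0.226 for epithelium. The leukocyte and epithelial sums were highest in WT at ZT2, and the red blood cell and endothelial sums in the mutant at ZT2. Of the 4 muscle markers, 3 were detected in WT at ZT2 (summed signal 0.308) and 0 on the other arrays, and miR-206 was not among the 3. The part of these cells in the results below was not tested.

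Each member was read by 2 probes and 20 spots per array, of which 18 to 20 were not marked as outliers. All 20 spots of every member were well above background on every array. The mean signals were 23.1 to 255 times those of the negative control spots, and single spots of a probe varied with an SD of 0.0301 to 0.0753 on the log2 scale. This spot SD describes single spots within an array and is wider than the error of a mean over 18 to 20 spots. It serves below as a yardstick only, and it does not include the spread between mice or between hybridizations.

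At ZT2 miR-26a gave 1395 units in WT and 1298 units in mutant liver, and at ZT14 936 and 1289 units. After scaling, its log2 levels were 1.38, 1.37, 1.46 and 1.27 in the same order. The level was highest in WT at ZT14 and lowest in the mutant at ZT14, and the whole range was 1.14-fold. WT and mutant at ZT2 lay within the spot SD of each other (0.0115 against 0.0625 on the log2 scale).

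miR-26b gave 1070 and 985 units in WT and mutant at ZT2, and 635 and 933 units at ZT14. Its scaled log2 levels were 0.996, 0.97, 0.90 and 0.80, so that both arrays at ZT2 lay above both at ZT14. The range was again 1.14-fold, and the 2 arrays at ZT2 were closer than the spot SD.

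For miR-101a, the signals were 376 and 305 units at ZT2 and 192 and 268 units at ZT14, in WT and mutant. Its scaled log2 levels were -0.51, -0.72, -0.82 and -1.001. These levels had the widest range of the family members, 1.40-fold, with WT at ZT2 highest and the mutant at ZT14 lowest. Every step in this order exceeded the spot SD.

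miR-101b measured 624 and 670 units at ZT2 and 377 and 603 units at ZT14. Its scaled log2 levels were 0.22, 0.41, 0.15 and 0.17. The mutant array at ZT2 stood above the other 3, which lay within their spot SDs of their neighbours, and the range was 1.20-fold. Among the 123 miRNAs detected on all arrays, 8.94%, 9.76%, 67.5% and 22.0% had a smaller range on the log2 scale than miR-26a, miR-26b, miR-101a and miR-101b. miR-26a and miR-26b were therefore among the flattest miRNAs under this scaling, whereas miR-101a was wider than the median range of 0.35. The order of the arrays follows the scaling as well, since every member had its lowest signal in WT at ZT14 before it.

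**Figure D1:**
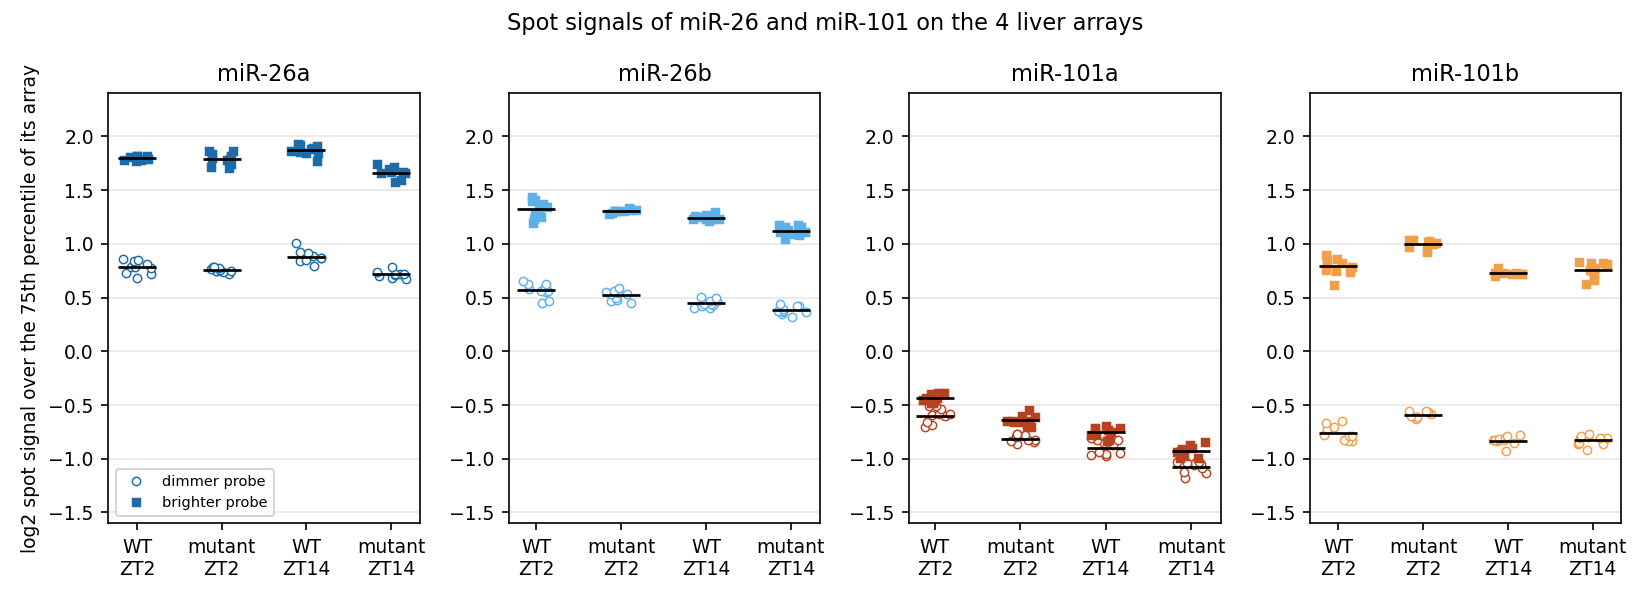
Each point is 1 spot without an outlier flag, as log2 of its signal over the 75th percentile of its array (vertical axis), for the dimmer and the brighter probe of each miRNA on the 4 arrays (horizontal axis), and black bars are probe means. Both probes of miR-101a step down from WT at ZT2 to the mutant at ZT14, both probes of miR-101b are highest in the mutant at ZT2, and the probes of miR-26a and miR-26b move little.

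At ZT2, in the early light phase, no member differed between mutant and WT by 1.5-fold. Of the 160 miRNAs detected on both arrays, 19 did, which is 11.9%. miR-26a had a mutant to WT ratio of 0.992 (log2 -0.01, spot SD 0.06) and miR-26b of 0.981 (log2 -0.03, spot SD 0.08), and neither ratio exceeded its spot SD. The ratio of miR-101a was 0.864 (log2 -0.21, spot SD 0.07), with -0.22 and -0.21 on its 2 probes. That of miR-101b was 1.15 (log2 0.20, spot SD 0.08), with 0.17 and 0.20 on its probes. The miR-101 members thus lay on opposite sides of 1, both beyond their spot SDs. With the 75th percentile of all mouse miRNAs as divisor and in the authors' table both lay above 1, and with the scanner's scaled total signal both lay below. Since a divisor that is common to an array does not change the order of the ratios, the place of a member among all miRNAs holds under any such divisor. By that order, 32.5% of miRNAs had a lower ratio than miR-101a, 53.8% than miR-26b, 56.9% than miR-26a and 85.6% than miR-101b. The median of all 160 log2 ratios was -0.07.

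At ZT14, in the early dark phase, 0 of the 4 members again passed 1.5-fold, against 16 of 123 miRNAs or 13% in all. The mutant to WT ratio was 0.874 for miR-26a (log2 -0.19, spot SD 0.07), 0.933 for miR-26b (log2 -0.10, spot SD 0.05) and 0.884 for miR-101a (log2 -0.18, spot SD 0.08). These 3 ratios exceeded their spot SDs. The ratio of miR-101b, 1.01 (log2 0.02, spot SD 0.07), did not. Of all miRNAs, 28.5% had a lower ratio than miR-26a, 31.7% than miR-101a, 39.02% than miR-26b and 59.3% than miR-101b, and the median log2 ratio was -0.03. Both probes of miR-26a (log2 -0.17 and -0.21) and both of miR-101a (log2 -0.18 and -0.18) lay below 0.

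The sign of the ratios at ZT14 depended on the divisor. Most miRNAs were brighter on the mutant array than on the WT array before scaling. The unscaled ratios of the members ran from 1.38-fold for miR-26a to 1.60-fold for miR-101b, all above 1. The median unscaled log2 ratio over all 123 miRNAs was 0.63, and the members lay around it, from 0.46 to 0.68. With the spike-in controls as the divisor, all 4 members passed 1.5-fold at ZT14, as did 102 of the 123 miRNAs, or 82.9%. The median log2 ratio of the members was then 0.70, where that of all miRNAs was 0.81. The WT array at ZT14 had low miRNA signals but the highest geometric mean of the spike-in controls, 6773 units against 5978 to 6409 on the other arrays. Why its miRNA signals were low was not tested. Relative to the median of all miRNAs, the median of the members was 0.11 lower on the log2 scale at ZT14, and 0.05 higher at ZT2. Of 13 other settings, 12 put the members below that median at ZT14 and 5 did so at ZT2. Settings that only change the divisor of an array cannot move this distance, so these counts are not independent. The place at ZT2 also depended on the miRNAs compared. There the 41 miRNAs at least as bright as the dimmest member had a median of 0.09, against -0.02 for the members.

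**Figure D2:**
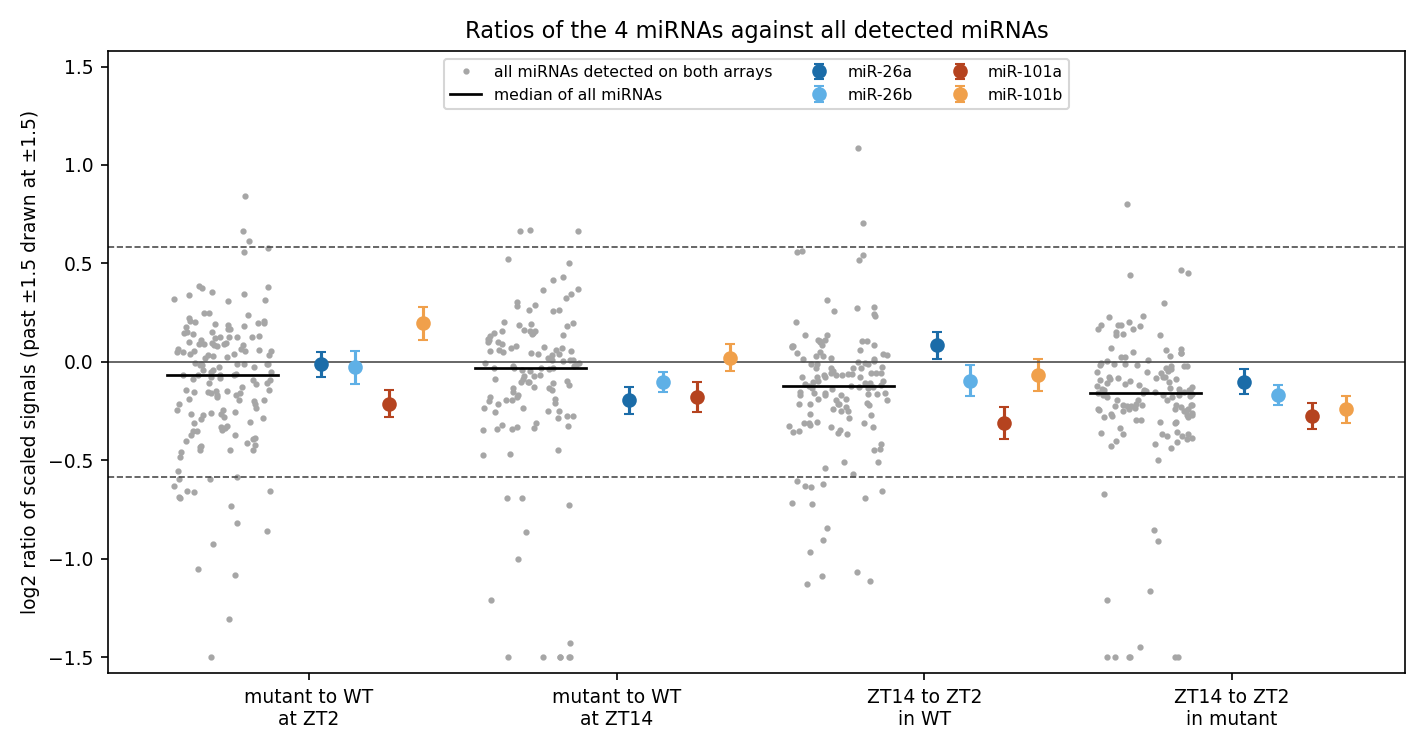
Grey points are the log2 ratios of all miRNAs detected on both arrays of each comparison (horizontal axis), black lines their medians, and coloured points the 4 members with their spot SD as error bars. The dashed lines mark 1.5-fold, and no member reaches them. With these values miR-101a lies below miR-101b in all 4 comparisons.

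Between the time points, the members also stayed within 1.5-fold. In WT, the ZT14 to ZT2 ratio passed 1.5-fold for 17 of 137 miRNAs, or 12.4%, and for 0 members. It was 1.06 for miR-26a (log2 0.08, spot SD 0.07), 0.937 for miR-26b (log2 -0.09, spot SD 0.08), 0.807 for miR-101a (log2 -0.31, spot SD 0.08) and 0.955 for miR-101b (log2 -0.07, spot SD 0.08). Of all miRNAs, 24.1% had a lower ratio than miR-101a, and 83.2% had a lower ratio than miR-26a. The values of miR-26b and miR-101b stood nearer the middle, above 54.7% and 59.9% of miRNAs. Without scaling, every member was lower at ZT14 in WT, with ratios from 0.511 for miR-101a to 0.671 for miR-26a. There 3 of the 4 members passed 1.5-fold, as did 112 of all 137 miRNAs, or 81.8%, and the median log2 ratio of all miRNAs was -0.78.

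In the mutant, all 4 members were lower at ZT14 than at ZT2, each beyond its spot SD, under the main scaling. The ratios were 0.933 for miR-26a (log2 -0.10, spot SD 0.06), 0.890 for miR-26b (log2 -0.17, spot SD 0.05), 0.826 for miR-101a (log2 -0.28, spot SD 0.07) and 0.846 for miR-101b (log2 -0.24, spot SD 0.07). The median over all 140 miRNAs was -0.16 on the log2 scale, and the members lay on both sides of it. Fewer miRNAs had a lower ratio than miR-101a (25% of them) and miR-101b (31.4%) than had one lower than miR-26b (47.1%) and miR-26a (62.1%). A change of 1.5-fold was found for 13 of 140 miRNAs, or 9.29%, and for 0 members. Under 5 of 13 other settings the median of the members was above 0 in this comparison, so their common direction follows the scaling.

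The time change of the genotype ratio, the log2 ratio at ZT14 minus that at ZT2, was -0.18 for miR-26a, -0.07 for miR-26b, 0.03 for miR-101a and -0.17 for miR-101b. Their spot SDs, over 4 arrays, were 0.09, 0.10, 0.10 and 0.11. miR-26a and miR-101b went beyond them, and 29.3% and 30.9% of 123 miRNAs had a lower value. The median of all was -0.06. No test of this difference is possible from single arrays.

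Both factors, genotype and time point, were then fitted together over the 4 arrays with limma, which has 1 residual degree of freedom per miRNA and borrows the spread from all 123. No miRNA was called for genotype at an adjusted p of 0.05 (0%, with 10 at an unadjusted p below 0.05) and none for time point (0%, with 12), by limma, so no member was. For genotype the log2 difference of mutant from WT was -0.19 for miR-101a (SE 0.12, limma adjusted p = 0.566), 0.11 for miR-101b (SE 0.13, adjusted p = 0.774), -0.10 for miR-26a (SE 0.13, adjusted p = 0.774) and -0.06 for miR-26b (SE 0.12, adjusted p = 0.820). The 95% intervals of these differences ran from 0.688-fold to 1.11-fold for miR-101a, from 0.836-fold to 1.39-fold for miR-101b, from 0.721-fold to 1.20-fold for miR-26a and from 0.751-fold to 1.22-fold for miR-26b. No interval reaches a decrease or an increase of 1.5-fold, given the spread that this fit estimates under the main scaling. With no replicate of a condition, that spread mixes the time change of the genotype difference with variation between pools and hybridizations. It cannot stand for the spread between mice, so the intervals do not exclude a difference of 1.5-fold. The intervals are for the genotype difference averaged over both time points and set no limit on the difference at either one.

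For time point, miR-101a had the largest difference of the 4, -0.29 on the log2 scale (SE 0.12, limma adjusted p = 0.525, unadjusted p = 0.0776), with an interval of 0.643-fold to 1.04-fold. The differences were -0.15 for miR-101b (adjusted p = 0.634), -0.13 for miR-26b (adjusted p = 0.634) and -0.01 for miR-26a (adjusted p = 0.978). The single log2 ratios of miR-101a were -0.31 in WT and -0.28 in the mutant. The medians of all miRNAs also lay below 0, at -0.12 in WT and -0.16 in the mutant. With the median as divisor miR-101a had -0.09 and -0.07 in the same order, and with quantile normalization 0 and 0. The values were -0.01 and 0.22 with the 75th percentile of all mouse miRNAs, and -0.97 and -0.19 without scaling. Size and sign of these ratios thus depended on the processing.

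The widest gap within a family was that between miR-101a and miR-101b in the mutant to WT ratio at ZT2, a result chosen after the data were seen. For scale, the log2 ratios of single miRNAs at ZT2 had an SD of 0.36 over all 160 miRNAs. Over the 41 at least as bright as the dimmest member, the SD was 0.24. A difference between unrelated ratios spreads wider than either ratio, so the gap looks larger against these SDs than against a like measure. How often other pairs of miRNAs lie as far apart was not counted. The difference of the miR-101 ratios is free of any divisor that is common to an array. At ZT2 the mutant to WT ratio of miR-101b was 1.33 times that of miR-101a (log2 0.41, spot SD over both miRNAs and arrays 0.11). Over the 4 ways to set a probe of miR-101b against a probe of miR-101a, this difference was 0.38 to 0.42. It was 0.20 with quantile normalization, the lowest of the 13 alternatives. At ZT14 it was 1.15 times (log2 0.20, spot SD 0.10, probe by probe 0.18 to 0.21). The gap thus had the same direction at both times. In the ZT14 to ZT2 ratio, miR-101b lay above miR-101a by 0.24 in WT (spot SD 0.11) and by 0.04 in the mutant (spot SD 0.10), the latter within the spot SD. With quantile normalization these values were 0 and -0.04. WT at ZT2 was the array on which miR-101a was highest relative to miR-101b. On that array the markers of other cells also stood higher in sum than on the other 3 for leukocytes (1.20, 3 of 5 detected, against 0.611 to 0.752, 2 of 5), epithelium (0.226, 4 of 5 detected, against 0.0811 to 0.154, 2 or 3 of 5) and muscle (0.308, 3 of 4 detected, against 0 of 4). Each sum holds detected markers only. Over all mouse miRNAs, 193 were detected in WT at ZT2, against 138 to 161 on the other arrays. The endothelial sum was not highest in WT at ZT2, with 3.91 there and 4.25 in the mutant at ZT2. The red blood cell markers were highest in the mutant at ZT2, with a sum of 5.94 and 3 of 3 detected, against 2.55 to 3.32 and 2 of 3 on the other arrays. The leukocyte miRNAs miR-150 and miR-155, the epithelial miR-200c and the muscle miR-206 were not detected on any array. The part of these markers in the gap was not tested.

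The miR-26 pair was closer. miR-26b minus miR-26a was -0.02 at ZT2 (spot SD 0.10) and 0.09 at ZT14 (spot SD 0.09) in the mutant to WT log2 ratio, and -0.18 in WT (spot SD 0.11) and -0.07 in the mutant (spot SD 0.08) in the ZT14 to ZT2 log2 ratio. Those at ZT2 and in the mutant were within the spot SD, and the widest was a 1.13-fold difference in WT between the time points. As a measure of how far probes of a single miRNA part on these arrays, the 2 probes of the 40 miRNAs at least as bright as the dimmest member differed by a median of 0.06 in the log2 ratio at ZT2, with a largest value of 0.20. The 2 probes of a member differed by at most 0.03 there, and by at most 0.09 in any comparison.

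**Figure D3:**
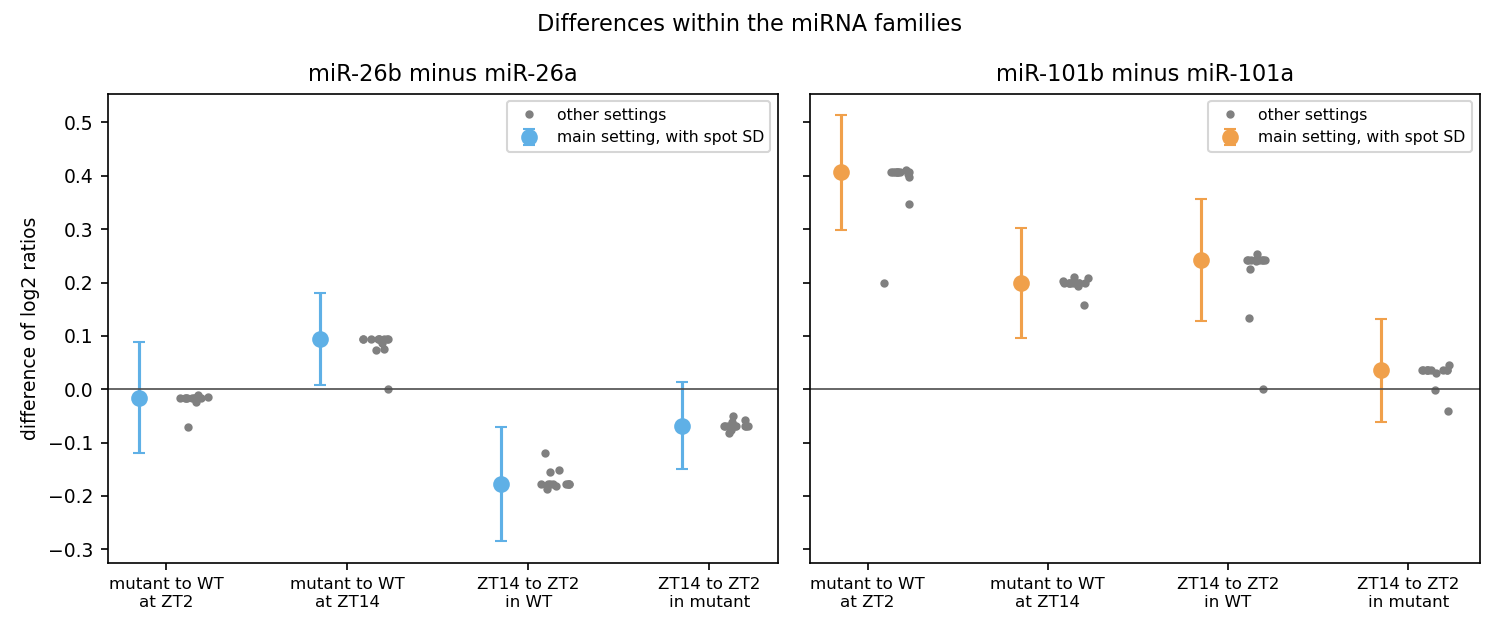
The vertical axis is the log2 ratio of the second family member minus that of the first, in each of the 4 comparisons (horizontal axis). Coloured points are the main values with the spot SD, and grey points the 13 other settings. For miR-101 the difference in the mutant to WT ratio lies above 0 under every setting, from 0.20 to 0.41 at ZT2 and from 0.16 to 0.21 at ZT14, and for miR-26 it stays within 0.10 of 0 there. Settings that only change the divisor of an array cannot move these differences, so the grey points are not independent.

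The settings differ mainly in the amount that they add to all miRNAs of an array. The table of log2 values that the authors deposited equals, for the 4 members, the log2 of the scanner's total signal plus a constant for each array. The constants add 0.916 to the mutant to WT log2 ratio at ZT2 and 0 at ZT14, and they add 7.51 in WT and 6.59 in the mutant to the ZT14 to ZT2 log2 ratio. With that table, all 4 members passed 1.5-fold upward at ZT2, with log2 ratios of 0.60 to 1.004, around the median of 0.74 of all miRNAs. Of the 160 miRNAs, 111 passed 1.5-fold at ZT2 in that table, or 69.4%. The place of the members among the miRNAs was nearly that of the main values, from 34.4% for miR-101a to 84.4% for miR-101b.

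**Figure D4:**
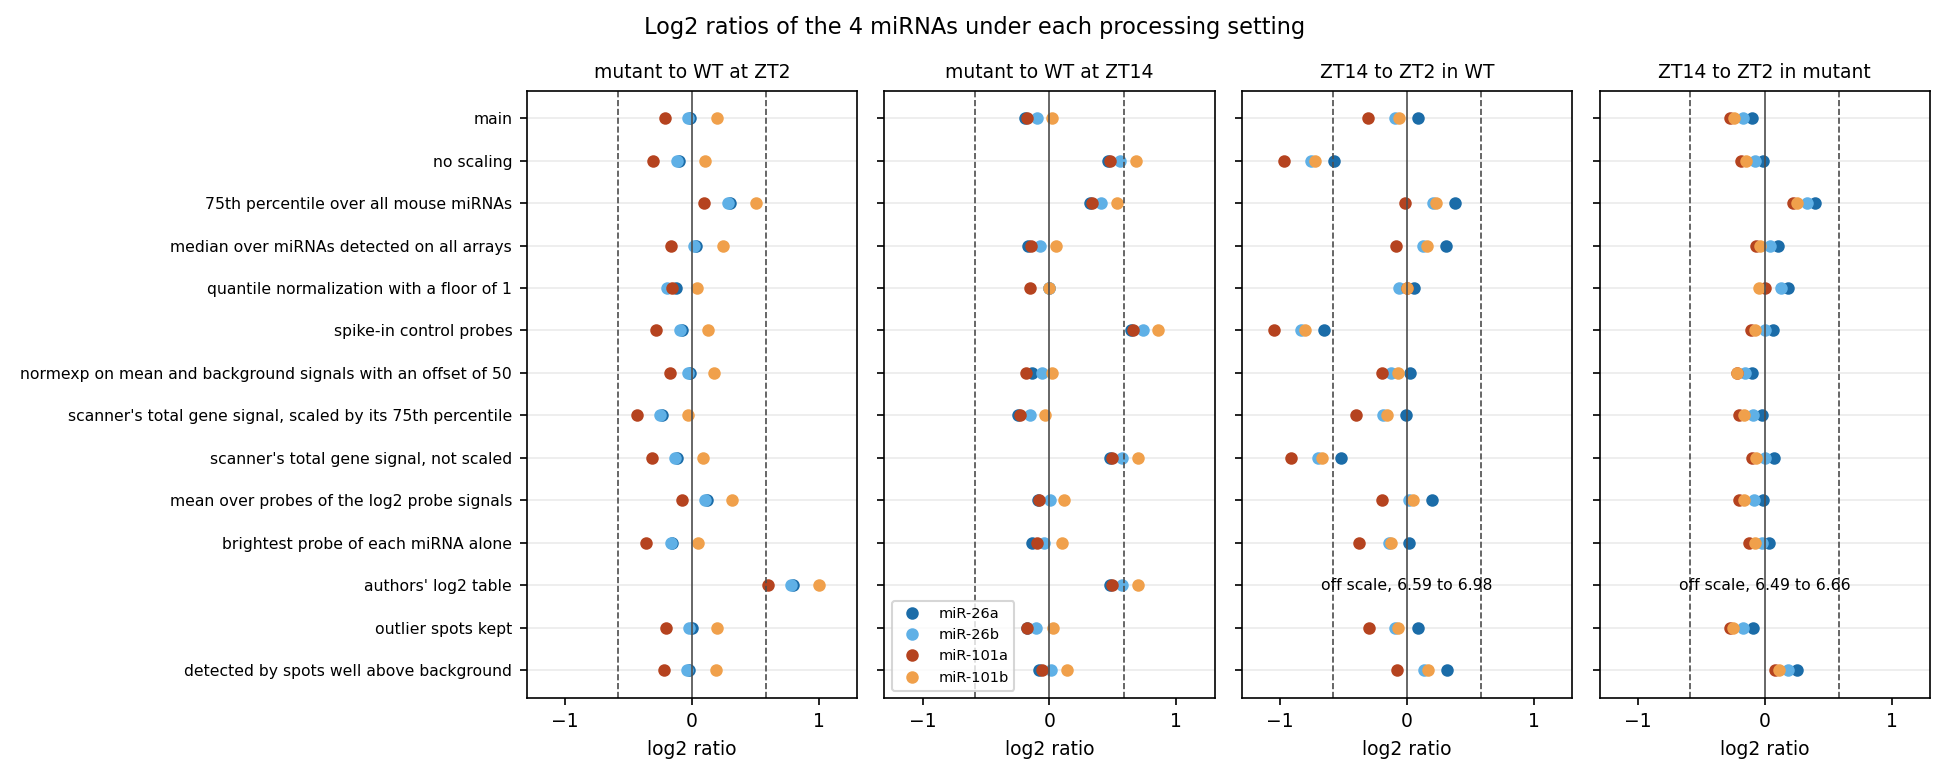
Each row is a processing setting and each panel a comparison, with the log2 ratio of the 4 members on the horizontal axis and dashed lines at 1.5-fold. The members shift together between settings, while miR-101a stays to the left of miR-101b in both mutant to WT panels. A change of the divisor of an array alone cannot alter that order. The values of the authors' table between time points, 6.49 to 6.98, are written in place of points.

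The miRNAs whose scaled levels followed the members most closely were found by the root mean square (RMS) difference of centred log2 levels over the 4 arrays, among 122 candidates. Nearest to miR-26a were miR-30c (RMS 0.0314), miR-29a (0.0474) and miR-202-3p (0.0638), with miR-26b in place 6 (0.0701). For miR-26b they were miR-15b (0.0335), miR-29a (0.0359) and let-7i (0.0411), with miR-26a in place 22. The pattern of miR-101a was most like those of miR-148a (0.0458), miR-30a (0.0594) and miR-31 (0.0647). For it, miR-101b came in place 58 (0.174), where the median over the candidates was 0.185. miR-101b itself was closest to miR-107 (0.0172), miR-103 (0.0193) and let-7g (0.0291), with miR-101a in place 73 and a median over the candidates of 0.141. This measure does not depend on a divisor common to an array, and by it neither family member was the nearest neighbour of the other. With 4 arrays, such a likeness is a description of these libraries only.

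Other miRNAs that are described as low or as high in liver tumours were counted for comparison. Of 29 miRNAs described as held down in liver tumours, such as miR-122, the let-7 family and miR-34a, 26 were detected on all arrays. Their mutant to WT log2 ratio was above 0 for 19 and below 0 for 7 at ZT2 (median 0.11), and above 0 for 14 and below 0 for 12 at ZT14 (median 0.04). Over all 123 miRNAs detected on every array, 59 were above 0 at ZT2 (median -0.01) and 54 at ZT14 (median -0.03). The 41 miRNAs at least as bright as the dimmest member had a median of 0.09 at ZT2, near that of the list. At ZT14, 42 such miRNAs had a median of -0.04. The largest ratios of the list at ZT2 were those of miR-139-5p (log2 0.67, spot SD 1.05) and miR-34a, which p53 induces (log2 0.56, spot SD 0.13). At ZT14 they were miR-34a (log2 0.66, spot SD 0.14) and miR-195 (log2 0.42, spot SD 0.14). The value of miR-139-5p was within its spot SD. At ZT2, 3 of the 4 miR-26 and miR-101 members lay below the median of this list, and at ZT14 all 4 did. The counts below the median of the other list, described as raised in liver tumours, were also 3 and 4.

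Of 21 miRNAs described as raised in liver tumours, such as miR-21 and the miR-17 to miR-92a cluster, 12 were detected on all arrays. At ZT2, 7 had a log2 ratio above 0 and 5 below (median 0.13), and at ZT14 10 lay above and 2 below (median 0.11). The largest were miR-221 (log2 0.58, spot SD 0.13) and miR-92a (log2 0.34, spot SD 0.08) at ZT2, and miR-221 (log2 0.66, spot SD 0.18) and miR-20a (log2 0.37, spot SD 0.10) at ZT14. limma called 0 miRNAs of either list for genotype or for time point. Another divisor would shift these medians by the same amount as the members.

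Between the time points, both lists were mostly lower at ZT14. In WT, 20 of the 26 miRNAs described as held down and 12 of the 12 described as raised had a log2 ratio below 0, with medians of -0.10 and -0.19, and in the mutant 22 and 9 did, with medians of -0.19 and -0.23. Of all 123 miRNAs, 95 lay below 0 in WT and 102 in the mutant.

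The opposite arms of the precursors could be judged by detection only. miR-26b* and miR-101a* were on the array and detected on 0 of 4 arrays, with mean signals of -2.24 to -0.0102 and of -6.13 to -4.62 units. miR-26a* and miR-101b* were not analysed here. Of the 6 arms looked at, the 4 members alone were detected.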

How the data were processed

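Liver RNA of 4 pools of mice was measured on 4 Agilent miRNA arrays read in 1 colour. The authors deposited the scanner output of Feature Extraction 10.7, which per the file headers gives a linear intensity after background subtraction for each spot. It also gives outlier flags and a detection call for each miRNA. A table of log2 values per miRNA was deposited as well. For the 4 members it holds the log2 of the scanner's total signal plus 1 constant per array, and its column medians were -7.51 (WT, ZT2), -6.59 (mutant, ZT2) and 0 for both at ZT14. A normalization between arrays is not given in the sources used here, and the table served as an alternative.

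Spots without outlier flags were averaged by probe and the probes by miRNA. Each array was then scaled by its 75th percentile, taken over 123 mouse miRNAs that were detected everywhere, and log2 was taken. Spot SDs are SDs of log2 signals within probes, pooled over the probes of a miRNA and combined over the arrays of a ratio. A percentile place is the percent of miRNAs, among those detected on both arrays, with a lower ratio. Mutant and WT, and ZT14 and ZT2, were compared as ratios of 2 arrays, with no test. limma 3.58.1 in R 4.3.3 fitted genotype and time point additively, with Benjamini-Hochberg adjustment over the 123 miRNAs at 0.05. On simulated data for genotype over 123 miRNAs, with independent noise of SD 0.15, it called 30 of 30 miRNAs changed by 1.5 on the log2 scale, and 1 unchanged. That change is far larger than the differences of the members, so the simulation does not show how often changes of their size would be called. Other steps used Python 3.11.15, numpy 2.4.6, pandas 2.3.3, scipy 1.17.1 and matplotlib 3.10.9.

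The members and lists were chosen with earlier results of these data known. Named beside the members were, for each, the 3 miRNAs with the nearest levels, and of each list the 2 largest mutant to WT ratios at each time point. The 13 alternatives for ratios were other divisors (none, the 75th percentile of all mouse miRNAs, the median, 4 spike-in control probes), quantile normalization (floor of 1 unit), normexp (offset of 50), the total signal of the scanner with or without scaling, other summaries of probes, the authors' table, kept outlier spots and another detection rule. For limma, other filters and models and each array left out were added. The differences within families were chosen as results after seeing the data.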

Additional observations from a re-analysis of the deposited data

Results flagged for a closer look

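miR-26a had opposite signs between the time points in the 2 genotypes, with a ZT14 to ZT2 log2 ratio of 0.084 in WT and of -0.10 in the mutant. Each value rests on a single pair of arrays, the difference was not tested, and the signs were the same in both genotypes under several other divisors, as with no scaling (log2 -0.58 and -0.01) or the 75th percentile of all mouse miRNAs (log2 0.38 and 0.40).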

How the results depend on the processing

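The size and sign of the members' ratios depended on the divisor of each array. Under the main scaling the medians of the 4 log2 ratios were -0.019 and -0.14 for mutant to WT at ZT2 and at ZT14, and -0.081 and -0.20 for ZT14 to ZT2 in WT and in the mutant, and 0 members passed 1.5-fold. Where the medians moved by more than the spot SD, the values were as follows. Without scaling they were -0.11 at ZT2, 0.52 at ZT14, -0.74 in WT and -0.11 in the mutant, and the members past 1.5-fold numbered 1 at ZT14 and 3 in WT, where 60.2% and 81.8% of all miRNAs passed. With the 75th percentile of all mouse miRNAs they were 0.29 at ZT2, 0.37 at ZT14, 0.22 in WT and 0.29 in the mutant. With the median as divisor they were 0.14 in WT and 0.0017 in the mutant. With quantile normalization they were -0.14 at ZT2, 0 at ZT14, 0 in WT and 0.065 in the mutant. With the spike-in controls they were 0.70 at ZT14, -0.82 in WT and -0.037 in the mutant, and the members past 1.5-fold numbered 4 at ZT14 and 4 in WT, where 82.9% and 90.5% of all miRNAs passed. With the scaled total signal they were -0.24 at ZT2, -0.17 in WT and -0.13 in the mutant. With the unscaled total signal they were -0.13 at ZT2, 0.53 at ZT14, -0.69 in WT and -0.031 in the mutant, and the members past 1.5-fold numbered 1 at ZT14 and 3 in WT, where 69.1% and 78.1% of all miRNAs passed. With mean log2 over probes they were 0.11 at ZT2, -0.039 at ZT14, 0.027 in WT and -0.13 in the mutant. With the brightest probe alone they were -0.16 at ZT2 and -0.048 in the mutant. With the authors' table they were 0.79 at ZT2, 0.53 at ZT14, 6.82 in WT and 6.56 in the mutant, and the members past 1.5-fold numbered 4 at ZT2, 1 at ZT14, 4 in WT and 4 in the mutant, where 69.4%, 65.9%, 100% and 100% of all miRNAs passed. With spots well above background as the detection rule they were -0.023 at ZT14, 0.15 in WT and 0.15 in the mutant. Values not given stayed within the spot SD, also with normexp and with outlier spots kept. The constants behind the authors' table are given in the report. For the other shifts the cause was not tested.

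limma called 0 miRNAs for genotype and 0 for time point under the main setting. It called 5 for time point without scaling, 3 with the spike-in controls and 1 with the unscaled total signal. With normexp it called 6 for genotype and 3 for time point, with no filter 16 and 35, with an intensity trend 2 and 1, and with the values deposited by the authors 79 and 123. No member was among the calls except all 4 with the authors' table, and the lowest adjusted p of a member under any other setting was 0.103. Leaving out each array in turn, with the other factor out of the model, gave 0 to 7 calls for genotype, the 7 without the mutant array at ZT2, and 0 to 13 for time point, the 13 without the WT array at ZT14 and 1 without the mutant array at ZT14.

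Members' limma differences whose sign turned were these for genotype. Without scaling it was 0.18 for miR-26a, 0.22 for miR-26b and 0.088 for miR-101a. With the 75th percentile of all mouse miRNAs it was 0.31 for miR-26a, 0.35 for miR-26b and 0.21 for miR-101a. With the spike-in controls it was 0.28 for miR-26a, 0.32 for miR-26b and 0.19 for miR-101a. With the scaled total signal it was -0.031 for miR-101b. With the unscaled total signal it was 0.18 for miR-26a, 0.22 for miR-26b and 0.089 for miR-101a. With mean log2 over probes it was 0.012 for miR-26a and 0.052 for miR-26b. With the authors' table it was 0.64 for miR-26a, 0.68 for miR-26b and 0.55 for miR-101a. These turned for time point. With the 75th percentile of all mouse miRNAs it was 0.39 for miR-26a, 0.27 for miR-26b, 0.10 for miR-101a and 0.24 for miR-101b. With the median as divisor it was 0.21 for miR-26a, 0.083 for miR-26b and 0.060 for miR-101b. With quantile normalization it was 0.12 for miR-26a and 0.032 for miR-26b. With mean log2 over probes it was 0.094 for miR-26a. With the brightest probe alone it was 0.026 for miR-26a. With the authors' table it was 6.82 for miR-26a, 6.70 for miR-26b, 6.54 for miR-101a and 6.68 for miR-101b. With spots well above background as the detection rule it was 0.28 for miR-26a, 0.16 for miR-26b and 0.14 for miR-101b. Without each array in turn, the genotype difference was -0.012 to 0.23 for miR-101b, below 0 without the mutant array at ZT2, and -0.15 to 0.020 for miR-26b, above 0 without the mutant array at ZT14. The time difference of miR-26a was -0.11 to 0.089, above 0 without the mutant array at ZT14.

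The difference between miR-101b and miR-101a lay above 0 in the mutant to WT ratio under all 13 alternatives at both time points. That count is no independent support, since alternatives that only change the divisor of an array cannot move the difference. Quantile normalization could move it, and gave 0.20 at ZT2 and 0.16 at ZT14, against main values of 0.41 and 0.20. For ZT14 to ZT2 in WT the difference was 0 with quantile normalization. In the mutant it was -0.041 to 0.046, with 2 of 13 below 0. The percentile place of a member did not move with the divisor, but ranged with other settings, such as 46.9% to 88.8% for miR-101b and 10% to 34.4% for miR-101a at ZT2. No paired analysis was possible because each group holds a single array. The main limit is that 1 pooled array stands for each condition, so the spread between mice is unknown.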
